A study of Mus musculus with 6 samples.

Results

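The proteasome genes of mouse Ly6D-negative common lymphoid progenitors were taken by symbol: every gene named Psm followed by a letter from a to g and a number, without pseudogenes. Of 22180 genes with a probe set of their own, 49 met this rule, and 46 of them were bright enough to be tested. The progenitors are bone marrow cells that can still form T, B and natural killer cells. They came from mutant OcnCre+;iDTR+/- mice and from control OcnCre-;iDTR+/- mice aged 6 to 8 weeks, with 3 samples per group and 1 Affymetrix array per sample. Cre is driven by the osteocalcin promoter and switches on a diphtheria toxin receptor, so that toxin removes osteocalcin-expressing bone cells. All mice of both groups carried iDTR and received toxin daily for 4 weeks, so the labelled difference between the groups is Cre. The labels do not say whether a sample was 1 mouse or a pool, so a p-value here speaks only of the spread among samples, which may be technical. With 3 arrays in each group precision is limited. The comparison of mutants with controls asks how loss of osteocalcin-expressing cells alters transcripts of the progenitors.

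The proteasome is the barrel-shaped protease that breaks down proteins tagged with ubiquitin. Its core particle is a stack of rings of alpha subunits, which gate the entrance, and beta subunits, some of which cut. A regulatory particle caps the core, with a ring of ATPases that unfolds and feeds substrates and non-ATPase subunits that bind and remove ubiquitin. In lymphoid and other blood cells part of the catalytic beta subunits is replaced by inducible ones, which gives the immunoproteasome and shapes the peptides shown on MHC class I.

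The values are log2 probe set intensities made by the authors with RMA, which corrects background and makes the arrays alike, so a difference of 1 is a factor of 2. RMA leaves no detection call. The lowest 40% of genes by mean over all arrays (under 4.84) were left untested, which left 13308 genes. Mutant replicate 2 stood apart: its correlations with the others were 0.936 to 0.954, and those among the remaining arrays 0.973 to 0.989, across probe sets, which are not independent. The arrays also differed in sex-linked expression across the groups, with Eif2s3y at 4.77 in mutant replicate 3 and 4.88 in control replicate 1 and at 7.31 to 7.85 on the other 4. Xist was at 10.72 in mutant replicate 3 and 11.04 in control replicate 1. On the other 4 it varied, at 8.03 and 5.57 in mutant replicates 1 and 2 and at 8.07 and 6.57 in control replicates 2 and 3. Fewer cells of a type and less RNA per cell cannot be told apart in such bulk samples. Genes of the sorted cells were above the testing limit in both groups. Il7r was at 9.76 ± 0.04 in mutants and 10.11 ± 0.27 in controls, and the lymphoid gene Dntt at 10.78 ± 0.16 and 10.98 ± 0.06 (SD, n = 3 each). Flt3 was dimmer, at 6.76 ± 0.21 in mutants and 6.94 ± 0.36 in controls. Genes of markers that the sort excludes were also above that limit. Ly6d was at 7.29 ± 0.285 in mutants and 7.86 ± 0.59 in controls, and Thy1 at 6.77 ± 0.21 and 6.98 ± 0.29. The tissue label names stromal cells. Of 7 stromal and bone genes Lepr and Sp7 were under that limit and the other 5 were dim, such as Col1a1 at 5.91 ± 0.10 in mutants and 5.94 ± 0.12 in controls. The myeloid gene Mpo, at 10.88 ± 0.50 in mutants and 10.43 ± 0.94 in controls, and Cd79a of B cells, at 10.35 ± 0.29 and 10.55 ± 0.25, were not dim. Csf1r, also myeloid, was dimmer, at 6.16 ± 0.205 in mutants and 6.53 ± 0.09 in controls. Of the 7 tested myeloid genes 2, Csf1r and Lyz2, had a lower mutant mean, and the others a higher one. The myeloid score, the median over 7 tested markers of the value minus the control mean, was 0.36, −0.24 and 0.26 in mutants and 0.31, −0.17 and 0.01 in controls, and its part in the proteasome values was not tested. All 7 tested progenitor markers had lower mutant means too, with a score of −0.13, −0.23 and −0.23 in mutants and 0.10, −0.05 and −0.05 in controls, and their part was likewise not tested.

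Proteasome genes had lower mutant means nearly throughout, but none passed a test. Of the 46 tested members, 42 had a lower and 4 a higher mutant mean. Their log2 differences, mutant minus control, had a median of −0.29 and a range from −0.86 for Psmd10 to 0.11 for Psme3ip1. Over all tested genes 57.5% had a lower mutant mean, and the median was −0.04. No member passed an adjusted p of 0.05 in limma (lowest adjusted p = 0.594), where 0% of all tested genes passed. At an unadjusted p under 0.05, 5 members were lower (10.9%) and 0 were higher, against 6.02% and 2.01% of all tested genes. All mutant values lay below all control values for 9 members (19.6%), against 9.99% of all tested genes, and for 0 members did they lie above, against 5.4%.

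The lower means rested unequally on the mutant arrays. The median deviation of the members from their control means was −0.02, −0.71 and −0.25 on the 3 mutant arrays in order of replicate, against −0.02, 0.01 and 0.01 on the control arrays. Mutant replicate 1 was therefore near the level of the controls. On it 25 of 46 members (54.3%) were below the control mean, against 47.5% of all tested genes. Mutant replicate 2 was below all controls for 40 members, where 45.0% of all tested genes were, and was the lowest of all arrays for 35 members (76.1%), against 35.9% of all tested genes. Mutant replicate 3 was below all controls for 34 members, against 40.5% of all tested genes. Without mutant replicate 2, 37 members had a lower mutant mean and the median was −0.16, while without mutant replicate 1 it was −0.45. The medians of all tested genes were −0.02 and −0.07 in these 2 settings. The members varied little among controls, with a median SD of 0.08, and more among mutants, with 0.39. The same medians over all tested genes were 0.20 in mutants and 0.12 in controls.

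**Figure D1:**
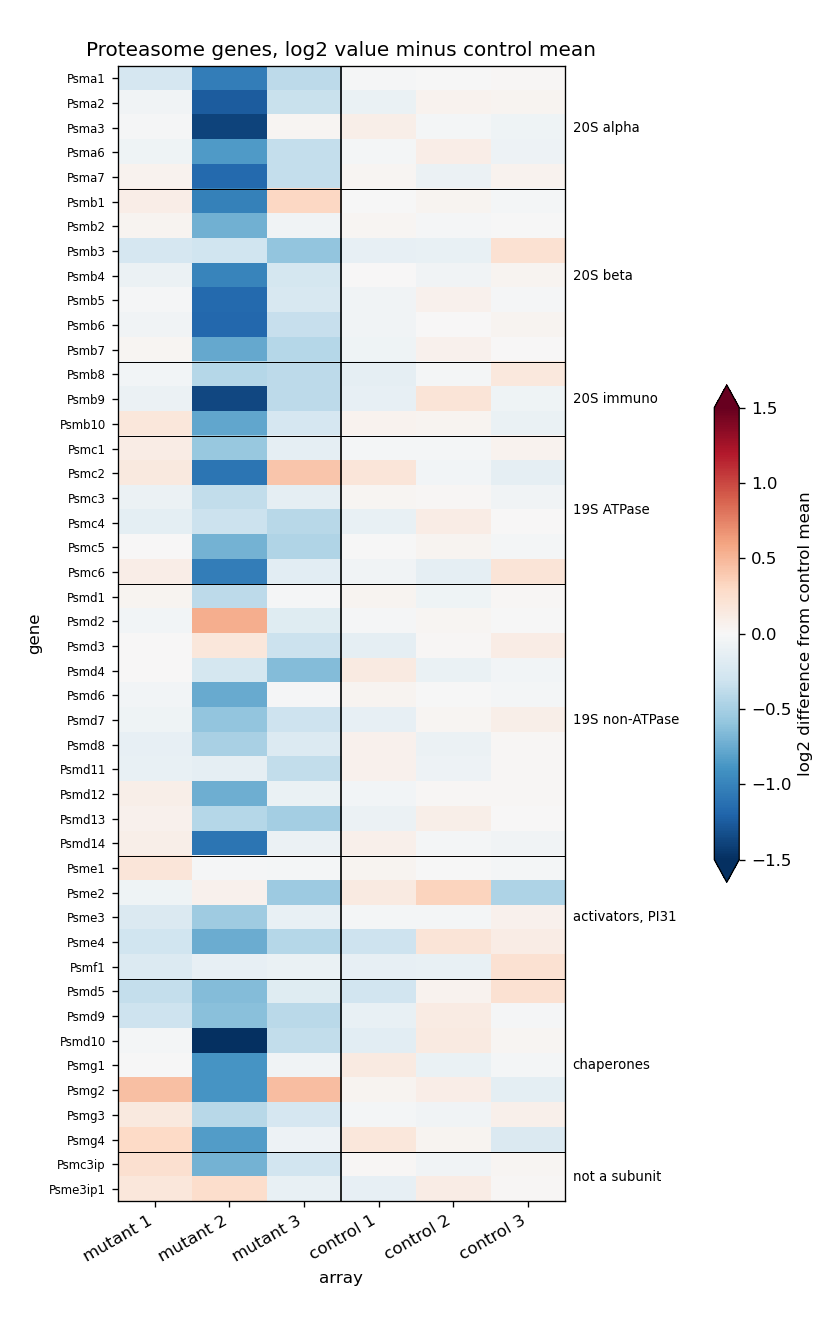
Each row is 1 of the 46 tested proteasome genes, grouped by role, and each column 1 array, mutants left of the black line and controls right. Colour is the log2 value minus the control mean of that gene, with values beyond 1.5 in the end colours. Mutant replicate 2 is blue in most rows, mutant replicate 3 is paler blue in most rows, and mutant replicate 1 is close to the controls (median −0.02).

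Brightness moved with these values. Of the 46 tested members, 42 were in the brightest 4 of 10 equal groups of tested genes, and 24 were in the brightest group. In that brightest group the median deviation of all 1331 genes was −0.00, −0.42 and −0.18 in mutant replicates 1, 2 and 3, while that of the members was −0.00, −0.74 and −0.17. In mutant replicate 2 these members were thus further below the controls than genes of like brightness, and in mutant replicate 3 they were not. In groups 7, 8 and 9, with 18 members, mutant replicate 3 had member medians of −0.37, −0.29 and −0.33, where all genes had −0.13, −0.18 and −0.20. Over all 46 members the median relative to like-bright genes was −0.02, −0.34 and −0.07 in mutant replicates 1, 2 and 3. Among groups 7 to 10, 38 of 42 members had a lower mutant mean (90.5%), against 80% of all genes there, and all mutants were below all controls for 7 members (16.7%), against 15.8%. Mutant replicate 2 was the lowest array for 33 of these 42 members (78.6%), against 55.2% of genes there. Minus the median of the gene's own brightness group, the median difference of the 46 members was −0.10, with 35 members below and 11 above. That value was −0.07 without mutant replicate 2, with 28 members below, and −0.17 without mutant replicate 1. When trends between arrays were removed by cyclic loess, the plain median was −0.11 with 35 members lower, and with repeated quantile normalization it was −0.13 with 37 lower. The medians of all tested genes were then 0.0009 and −0.001. What the trend with brightness contributes to the members' values was not tested beyond this.

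**Figure D2:**
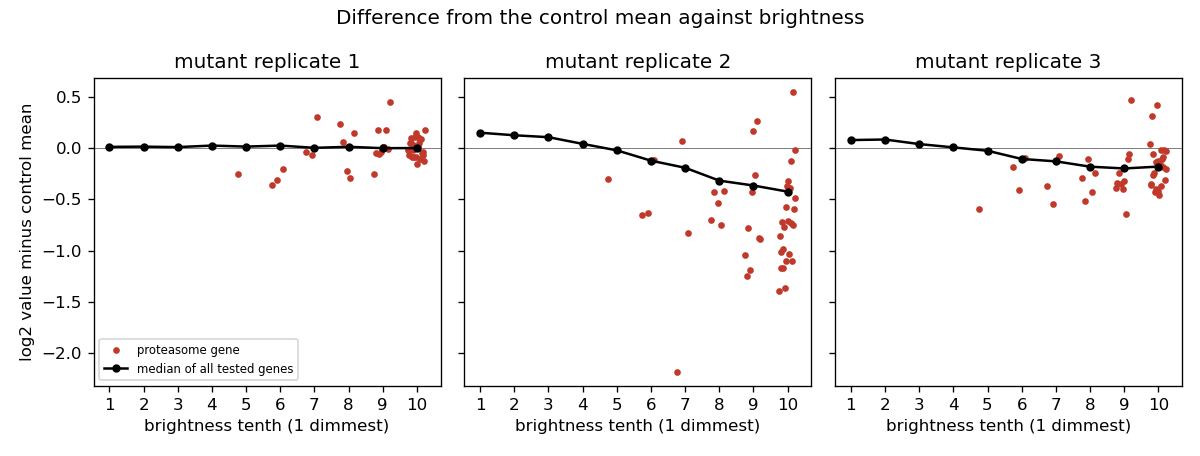
Each panel is 1 mutant array. The x axis is the brightness group (1 dimmest, 10 brightest, by mean over all arrays), the y axis the log2 value minus the control mean; red points are proteasome genes and the black line joins the medians of all tested genes. In mutant replicate 2 the line falls to −0.42 at the bright end and most points lie below it, while in mutant replicate 1 the line stays near 0 and the points lie between −0.36 and 0.45.

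With all arrays the constitutive core particle had the lowest median among the main assemblies, but this order depended on the setting. All 12 tested core genes, 5 of the alpha ring and 7 of the beta ring, had lower mutant means, with a median difference of −0.45 and a range from −0.56 to −0.20. For the regulatory particle the median over 17 genes was −0.27 with 16 lower, and for the inducible catalytic subunits it was −0.29 with 3 of 3 lower. Of all genes in brightness groups 7 to 10, 80% had a lower mutant mean. Relative to genes of like brightness the core median was −0.25, with 11 genes below and 1 above. That of the regulatory particle was −0.06, with 10 below and 7 above, and that of the inducible subunits −0.10, with 3 below. Without mutant replicate 2 the core had a plain median of −0.18 with 10 of 12 genes lower, the regulatory particle −0.11 and the inducible subunits −0.22. With array weights these medians were −0.36, −0.20 and −0.41 in the same order. In both settings the inducible subunits were thus lowest. After cyclic loess the core was at −0.24 (11 of 12 lower), the regulatory particle at −0.05 (10 of 17) and the inducible subunits at −0.11 (3 of 3). Differences between assemblies were not tested.

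In the alpha ring, Psma1, which helps to form the gated outer ring, was at 8.29, 7.50 and 8.16 in mutants, against 8.53, 8.54 and 8.57 in controls. Its groups did not overlap, and mutant replicate 2 was far below the rest. The difference was −0.56 ± 0.20 (SE; unadjusted p = 0.0245, adjusted p = 0.594 in limma), and it was −0.32 without mutant replicate 2. Psma6, another alpha subunit, was at 10.24, 9.46 and 9.96 in mutants, against 10.29, 10.41 and 10.24 in controls. Mutant replicate 1 reached the lowest control and the others were below it, with a difference of −0.43 ± 0.20. It was −0.21 without mutant replicate 2 and −0.20 after cyclic loess. The remaining alpha genes ran from −0.54 for Psma2 to −0.46 for Psma3, which was at 8.30 in mutant replicate 2, against 9.63 to 9.78 in controls, and differed by 0.01 without that array. Without mutant replicate 2, Psma2 differed by −0.19 and Psma7, at −0.49 ± 0.28 with all arrays, by −0.16. Relative to genes of like brightness the alpha ring had a median of −0.05, −0.74 and −0.17 in mutant replicates 1, 2 and 3. Psma5 was too dim to be tested on either of its probe sets, at 4.02 ± 0.42 in mutants and 4.06 ± 0.10 in controls on the brighter one, and Psma4 was not analysed here because it shares its probe sets with another gene. Psma8, the alpha subunit of the testis proteasome, was also dim, at 4.71 ± 0.20 in mutants and 4.53 ± 0.30 in controls.

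Among the constitutive catalytic subunits, Psmb5, which carries the chymotrypsin-like activity, was at 9.94, 8.79 and 9.72 in mutants, against 9.91, 10.03 and 9.94 in controls. Mutant replicate 1 lay among the controls and mutant replicate 2 over 1 log2 unit below them. The difference was −0.48 ± 0.27 (adjusted p = 0.599), and −0.13 without mutant replicate 2. Psmb6, with the caspase-like activity, was at 7.84, 6.71 and 7.55 in mutants, against 7.84, 7.91 and 7.94 in controls, a difference of −0.53 ± 0.26, or −0.20 without mutant replicate 2. Mutant replicate 1 again met the lowest control. Psmb7, with the trypsin-like activity, was at 9.49, 8.69 and 9.03 in mutants, against 9.40, 9.52 and 9.46 in controls, a difference of −0.39 ± 0.20, with mutant replicates 2 and 3 below all controls. It was −0.20 without mutant replicate 2 and −0.17 after cyclic loess. The structural beta subunit Psmb3 was the exception to the array pattern among the beta genes. Its probe set was also the dimmest of them, with a mean of 5.96 in brightness group 5. There the median deviation of all genes in mutant replicate 2 was −0.02. It was at 5.90, 5.85 and 5.55 in mutants, against 6.03, 6.04 and 6.38 in controls, so that its groups did not overlap and mutant replicate 3 was lowest. Its difference was −0.38 ± 0.15 (unadjusted p = 0.0379, adjusted p = 0.594) and −0.42 without mutant replicate 2. Psmb4 also had all mutants below all controls (−0.44 ± 0.22, or −0.17 without mutant replicate 2). Psmb2 differed by −0.24 ± 0.20 and Psmb1 by −0.20 ± 0.31, and without mutant replicate 2 these were −0.01 and 0.21.

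The inducible subunits stand in for these catalytic subunits in the immunoproteasome. Psmb8, which replaces Psmb5, was at 7.83, 7.43 and 7.46 in mutants, against 7.73, 7.84 and 8.02 in controls. Mutant replicates 2 and 3 were alike and below all controls, and mutant replicate 1 was among the controls, with a difference of −0.29 ± 0.15 (adjusted p = 0.594), or −0.11 after cyclic loess. Psmb9, which replaces Psmb6, was at 10.28, 9.01 and 9.97 in mutants, against 10.24, 10.56 and 10.30 in controls. Its difference of −0.62 ± 0.30 was the widest of the core genes, inducible ones included, and was −0.24 without mutant replicate 2. Psmb10, which replaces Psmb7, was at 8.41, 7.46 and 7.99 in mutants, against 8.29, 8.28 and 8.14 in controls. Mutant replicate 1 was above all controls, and the difference was −0.28 ± 0.22, or −0.04 without mutant replicate 2. Psmb11, the catalytic subunit of the thymus cortex, was too dim to be tested, at 4.25 ± 0.16 in mutants and 4.15 ± 0.11 in controls.

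**Figure D3:**
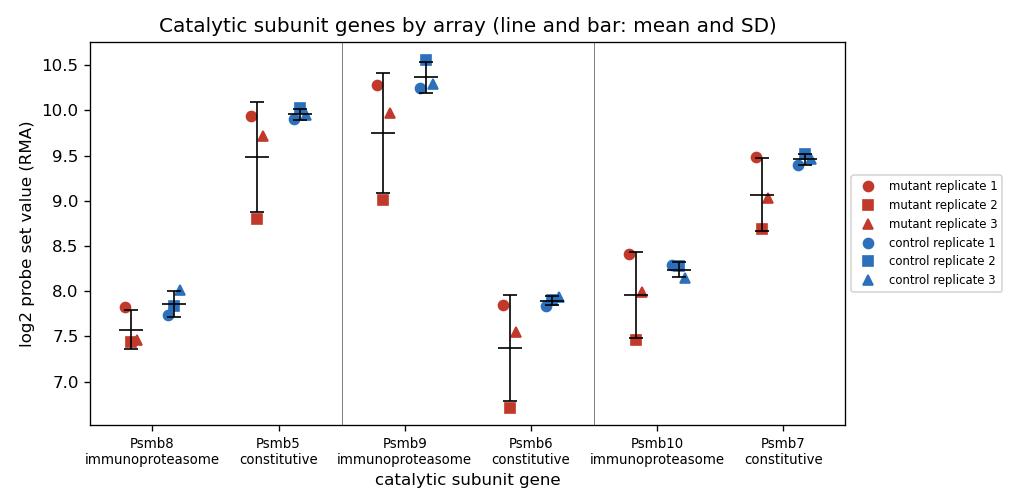
The y axis is the log2 probe set value for the 3 inducible catalytic subunit genes, each left of the constitutive gene it replaces, with mutants in red left of controls in blue. Symbols mark replicates, and black lines and bars the mean and SD (n = 3 each). Mutant replicate 2 is the lowest point of all 6 genes, and heights of different genes cannot be compared since each has its own probes.

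The balance of inducible to constitutive genes was read as log2 ratios, whose group means differed by −0.09 to 0.19. The log2 ratio of Psmb8 to Psmb5 differed by 0.19, at −2.11, −1.36 and −2.26 in mutants, against −2.18, −2.19 and −1.93 in controls. Only mutant replicate 2 stood out, and without it the difference was −0.09. The ratio of Psmb9 to Psmb6 was 2.38 ± 0.08 in mutants and 2.47 ± 0.16 in controls, a difference of −0.09. The ratio of Psmb10 to Psmb7 was −1.11 ± 0.10 in mutants and −1.22 ± 0.11 in controls, a difference of 0.11 (SD, n = 3 each). In 2-sided exact permutation tests over the samples p was 0.7, 0.6 and 0.2 in this order, with adjusted p = 0.7, 0.7 and 0.6 over 3 pairs. The smallest p that 3 against 3 allows is 0.1, so these tests could not pass and show neither a change nor its absence. Only the difference of a ratio between the groups is given here, and its level is not read.

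The ATPases of the regulatory particle unfold substrates. All 6 had lower mutant means (median −0.25), at about the level of genes of like brightness (median −0.03 relative to these, 3 below and 3 above). Without mutant replicate 2 the median was −0.07. Psmc4 was at 8.9616, 8.7894 and 8.6982 in mutants, against 9.0002, 9.2242 and 9.116 in controls, with no overlap and little spread. Its difference was −0.30 ± 0.13 (unadjusted p = 0.0458, adjusted p = 0.594) and was −0.28 without mutant replicate 2, but −0.10 with repeated quantile normalization and −0.08 after cyclic loess. Psmc5 was at 9.64, 8.91 and 9.17 in mutants, against 9.62, 9.66 and 9.60 in controls (−0.39 ± 0.18), with mutant replicate 1 among the controls. It was −0.22 without mutant replicate 2 and −0.16 after cyclic loess. Psmc3 also had all mutants below all controls (−0.20 ± 0.12), and was 0.02 after cyclic loess. Psmc2 was spread most, at 10.69, 9.45 and 10.96 in mutants, against 10.72, 10.50 and 10.41 in controls; its difference of −0.18 became 0.28 without mutant replicate 2, and its second probe set differed by −0.30.

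Of the 11 non-ATPase genes of the regulatory particle 10 had lower mutant means (median −0.27, −0.06 relative to genes of like brightness and −0.15 without mutant replicate 2). Psmd7, the partner of the deubiquitinase Psmd14, was at 8.72, 8.20 and 8.48 in mutants, against 8.67, 8.81 and 8.88 in controls. Mutant replicate 1 reached into the controls, and the difference was −0.32 ± 0.16, or −0.19 without mutant replicate 2 and −0.11 after cyclic loess. Psmd8, a subunit of the lid, was at 9.29, 8.94 and 9.22 in mutants, against 9.48, 9.34 and 9.44 in controls, without overlap (−0.27 ± 0.13, adjusted p = 0.594), and was −0.16 without mutant replicate 2 and −0.05 after cyclic loess. Psmd14 itself differed by −0.36 ± 0.28, and by 0.00 without mutant replicate 2. Psmd4, a ubiquitin receptor, differed by −0.30 ± 0.18, and mutant replicate 3 was lowest at 7.62; it was −0.11 after cyclic loess. The large scaffold subunit Psmd2 went the other way, at 8.23, 8.81 and 8.09 in mutants, against 8.25, 8.30 and 8.27 in controls. Mutant replicate 2 was here the highest array and the other mutants were below all controls, so that the difference of 0.10 ± 0.19 turned to −0.11 without it and was 0.31 after cyclic loess. Psmd3 was likewise highest in mutant replicate 2, at 8.13, against 7.83 to 8.07 in controls, and the other large scaffold subunit, Psmd1, differed by −0.12 ± 0.14. After cyclic loess Psmd3, at −0.05 ± 0.15 with the deposited values, was 0.14 and Psmd1 was 0.08.

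Other activators can cap the core in place of the regulatory particle. Psme4, which encodes the nuclear activator PA200, was at 7.24, 6.79 and 7.10 in mutants, against 7.22, 7.73 and 7.65 in controls. Control replicate 1 lay within the mutants, and the difference was −0.49 ± 0.18 (unadjusted p = 0.0261, adjusted p = 0.594), or −0.36 without mutant replicate 2. Psme3, which forms the nuclear PA28 gamma ring, was at 6.99, 6.67 and 7.10 in mutants, against 7.18, 7.18 and 7.27 in controls, without overlap (−0.29 ± 0.14, or −0.16 without mutant replicate 2). Psme1 and Psme2 form the interferon-inducible PA28 ring together. Psme1 was at 9.13, 8.93 and 8.92 in mutants, against 8.99, 8.94 and 8.92 in controls, so that the groups overlapped and the difference was 0.04 ± 0.11. When arrays were centred on their medians it was −0.02, and after cyclic loess 0.26. Psme2 had the widest control spread of all members (SD 0.41) and differed by −0.18 ± 0.24. The inhibitor gene Psmf1 differed by −0.14 ± 0.13.

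Assembly chaperones guide subunits into the rings and leave the finished particle. Of 7 tested genes 6 had lower mutant means (median −0.31), and mutant replicate 2 was the lowest array for all 7. Without it the median was −0.05. Psmd9, a chaperone of the ATPase ring, had the lowest p of all members. It was at 6.24, 5.92 and 6.14 in mutants, against 6.44, 6.68 and 6.54 in controls, without overlap, and the difference was −0.45 ± 0.13 (unadjusted p = 0.0097, adjusted p = 0.594 in limma). Over the 17 alternatives it ran from −0.53 to −0.36. Psmd5, with the same kind of role, was at 6.15, 5.85 and 6.32 in mutants, against 6.22, 6.56 and 6.74 in controls (−0.40 ± 0.18), where mutant replicate 3 exceeded control replicate 1. Psmd10, known as gankyrin, was at 7.32, 5.18 and 6.98 in mutants, against 7.20, 7.49 and 7.38 in controls. Mutant replicate 2 alone was far below every other array, and the difference of −0.86 ± 0.49 became −0.20 without it. Among the chaperones of the alpha ring, Psmg2 was at 8.00, 6.67 and 8.02 in mutants, against 7.60, 7.66 and 7.41 in controls. Mutants thus lay on both sides of the controls, and the difference of 0.01 ± 0.34 was 0.46 without mutant replicate 2, while its second probe set differed by −0.25. Psmg1, Psmg3 and Psmg4 differed by −0.31, −0.17 and −0.20, and by −0.03, −0.05 and 0.11 without mutant replicate 2. The symbol rule also caught genes that are no subunits. Psmc3ip, which acts in meiotic recombination, differed by −0.25 ± 0.22, and by −0.03 without mutant replicate 2. Psme3ip1, whose product binds the PA28 gamma ring, was at 7.77, 7.85 and 7.49 in mutants, against 7.47, 7.70 and 7.61 in controls, a difference of 0.11 ± 0.14 that was −0.10 with array weights and 0.03 without mutant replicate 2.

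**Figure D4:**
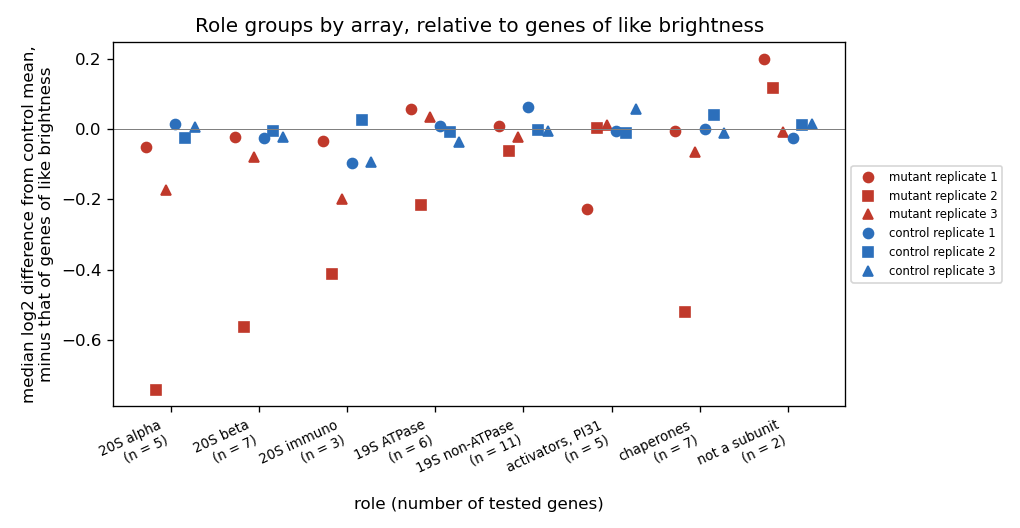
The x axis gives the role with its number of tested genes, the y axis the median log2 difference from the control mean minus that of all genes in the same brightness group. Mutants are red and left of controls, which are blue, and symbols mark replicates. Mutant replicate 2 is lowest in the alpha ring (−0.74), the constitutive beta ring (−0.56), the chaperones (−0.52) and the inducible subunits (−0.41), and near 0 in the non-ATPase subunits (−0.06) and activators (0.00).

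The windows before the transcript starts were searched for motifs known from promoters of proteasome or interferon-inducible genes. RefSeq windows of 250 bases (build GRCm38.p6), several for some genes, were at hand for 41 of the 49 members and for 17491 protein-coding genes. Both strands were searched, and motifs may overlap. The ETS core CCGGAA was in the windows of 18 members (43.9%), among them Psma6, Psmc5, Psmd2 and Psme4, against 16.9% of protein-coding genes. The GC box GGGCGG was in 22 members (53.7%), against 45.8%. The NF-Y box CCAAT was in 16 (39.0%), against 39.5%. The element TGACNNNGC, bound by Nfe2l1 and Nfe2l2 with small Maf proteins, was in 5 (12.2%), namely Psmb5, Psmb6, Psmc6, Psmd12 and Psmd9, against 12.0%. The interferon element, GAAA followed by any 2 bases and GAAA, was in 3 (7.32%), namely Psmb3, Psmd4 and Psmd9, against 3.48%. These are letter matches and not sites, and differences between these shares were not tested. Shown here are windows of the constitutive catalytic genes Psmb5 and Psmb6, of the inducible Psmb9, and of Psma1, Psmd9 and Psme4, which had the lowest p of their groups. They run 5′ to 3′ on the strand of the gene and end just before the start, with matches to any of these motifs in capitals; adjoining or overlapping matches merge into 1 run in Psmd9 and Psme4.
Psmb5, chr14:54617996-54618245, minus strand: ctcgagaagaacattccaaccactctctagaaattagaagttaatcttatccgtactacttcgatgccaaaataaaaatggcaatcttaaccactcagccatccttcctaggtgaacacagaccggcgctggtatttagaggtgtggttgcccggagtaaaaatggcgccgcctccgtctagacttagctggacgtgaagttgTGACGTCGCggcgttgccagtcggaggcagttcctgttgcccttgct
Psmb6, chr11:70525107-70525356, plus strand: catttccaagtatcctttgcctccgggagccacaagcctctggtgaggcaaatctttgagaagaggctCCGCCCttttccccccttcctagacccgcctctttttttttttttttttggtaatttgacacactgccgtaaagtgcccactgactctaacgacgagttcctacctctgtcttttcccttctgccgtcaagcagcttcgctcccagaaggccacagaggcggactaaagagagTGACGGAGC
Psmb9, chr17:34187331-34187580, minus strand: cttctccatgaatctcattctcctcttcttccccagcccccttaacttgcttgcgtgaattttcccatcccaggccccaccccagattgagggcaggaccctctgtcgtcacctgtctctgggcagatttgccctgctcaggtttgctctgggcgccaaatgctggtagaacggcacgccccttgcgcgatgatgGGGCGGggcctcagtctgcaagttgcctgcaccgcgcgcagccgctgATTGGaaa
Psma1, chr7:114276117-114276366, minus strand: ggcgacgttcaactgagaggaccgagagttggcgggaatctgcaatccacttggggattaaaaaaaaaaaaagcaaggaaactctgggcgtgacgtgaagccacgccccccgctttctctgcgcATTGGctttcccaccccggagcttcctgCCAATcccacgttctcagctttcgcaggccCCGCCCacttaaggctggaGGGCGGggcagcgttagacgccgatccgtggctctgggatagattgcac
Psmd9, chr5:123227940-123228189, plus strand: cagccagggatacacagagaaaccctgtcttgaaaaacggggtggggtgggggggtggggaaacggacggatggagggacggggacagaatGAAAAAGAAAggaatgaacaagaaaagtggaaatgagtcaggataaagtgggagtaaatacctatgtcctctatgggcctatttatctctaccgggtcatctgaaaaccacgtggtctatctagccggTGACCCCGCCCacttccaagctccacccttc
Psme4, chr11:30771525-30771774, plus strand: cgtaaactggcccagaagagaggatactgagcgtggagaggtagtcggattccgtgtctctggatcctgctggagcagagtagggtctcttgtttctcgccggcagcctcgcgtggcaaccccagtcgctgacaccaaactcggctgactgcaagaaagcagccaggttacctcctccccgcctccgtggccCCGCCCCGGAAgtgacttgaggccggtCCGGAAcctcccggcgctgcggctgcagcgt
Psmb5 and Psmb6 each had the TGACNNNGC letters close to the start, at 47 and 9 bases before it, and Psmd9 had them at 31. Psmb9 had CCAAT at 8 bases before its start and no match to the interferon element. The windows of the other inducible genes, Psmb8 and Psmb10, which are not shown, had no match to any of these motifs.

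None of the genes that work with the proteasome passed, and the lists were not tested against each other. Of all genes in brightness groups 7 to 10, 80% had a lower mutant mean and 55.2% had mutant replicate 2 as the lowest array. All 8 tested proteasome factors outside the symbol rule had lower mutant means (median −0.29), and mutant replicate 2 was the lowest array for all of them. Their median was −0.08 relative to genes of like brightness, with 6 below and 2 above, and −0.08 without mutant replicate 2. Pomp, which helps to assemble the beta ring, was at 8.38, 7.32 and 7.76 in mutants, against 8.28, 8.56 and 8.49 in controls, a difference of −0.62 ± 0.25 (adjusted p = 0.594). Only mutant replicate 1 reached the controls, and without mutant replicate 2 the difference was −0.37. Akirin2, needed to import proteasomes into the nucleus, differed by −0.28 ± 0.13, without overlap, or by −0.18 without mutant replicate 2. Of 10 tested genes that deliver substrates 5 were lower and 5 higher (median −0.04, and 0.05 relative to genes of like brightness). Without mutant replicate 2 the plain median of this list was −0.07. It included Faf1 (−0.25 ± 0.14, or −0.16 without mutant replicate 2) and Ufd1 (−0.36 ± 0.23, or −0.10 without it). Of the ubiquitin genes only Uba7 (−0.31 ± 0.13, or −0.32 without mutant replicate 2) and Uba6 (0.09 ± 0.14, or 0.19 without it), both ubiquitin-family activating enzymes, had probe sets of their own.

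Of 9 tested regulators of proteasome genes 8 had lower mutant means (median −0.17). Relative to genes of like brightness their median was −0.02, with 5 below and 4 above, and without mutant replicate 2 the plain median was −0.07. The list held Nfya at −0.33 ± 0.13 and Nfe2l2 at −0.36 ± 0.19. Without mutant replicate 2 these were −0.44 and −0.22. Nfe2l1, which raises proteasome transcription when the protease is inhibited, was at 6.84 ± 0.26 in mutants and 6.84 ± 0.13 in controls (SD, n = 3 each). Mutant replicate 2 was here the highest array, at 7.11, and without it the Nfe2l1 difference was −0.14. Of 9 tested regulators of immunoproteasome genes 8 were lower (median −0.23). Their median was −0.08 relative to genes of like brightness, with 5 below and 4 above, and −0.08 without mutant replicate 2. The list held Irf2 (−0.30 ± 0.13, or −0.27 without mutant replicate 2) and Stat2 (−0.31 ± 0.17, or −0.30 without it). In the list of MHC class I presentation 6 of 10 tested genes were lower (median −0.03, and 0.11 relative to genes of like brightness). Without mutant replicate 2 the plain median of this list was −0.08, near those of the 2 regulator lists. H2-K1, a class I heavy chain gene, was at 8.77 ± 0.22 in mutants and 9.19 ± 0.17 in controls (−0.43 ± 0.15, adjusted p = 0.594 in limma), and the peptide transporter gene Tap2 differed by −0.20 ± 0.14. Without mutant replicate 2 these differences were −0.46 and −0.26.

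Sex-linked expression did not line up with the groups. On the 4 arrays with high Eif2s3y the median difference of the proteasome genes was −0.35 with 41 of 46 lower, where that of all tested genes was −0.04. Relative to genes of like brightness it was −0.14 there, with 36 of 46 below. The mutants among these arrays are replicates 1 and 2, so the value rests largely on mutant replicate 2. On the remaining pair, mutant replicate 3 minus control replicate 1, the plain median was −0.21 with 40 of 46 lower, where 57.6% of all tested genes were lower. No share among genes of like brightness was taken for this pair.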

How the data were processed

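RNA from 3 mutant and 3 control samples of sorted Ly6D-negative progenitors was measured, 1 array each, and samples were grouped by their titles. Trizol extraction, NuGEN Ovation amplification and biotin labelling are given in the labels' protocols. The authors deposited log2 intensities per probe set, and the submitters' processing notes name RMA as the method. Which RMA version and annotation they used is not given in the sources used here. Of 41345 probe sets 23521 had 1 gene symbol in a platform annotation table, and only these were named. All 49 members matched a RefSeq gene (GRCm38.p6). Where a gene had several probe sets, the one brightest over the 6 arrays stood for it.

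The mutant minus control difference was fitted with limma 3.58.1 (R 4.3.3; lmFit, then eBayes), with 2-sided p adjusted by Benjamini-Hochberg over all tested genes and a threshold of 0.05, and the script was tested on simulated data. The error given with a difference is its standard error in limma. The 10 brightness groups were cut on the mean over the 6 arrays. Array values are given for the catalytic pairs, the 2 genes with the lowest p of each other role group with 3 or more tested members, and the 4 largest positive differences; of pathway lists the 2 genes with the lowest p were named. Psma2, Psma3, Psma7, Psmb1, Psmb2, Psmb4, Psmc2, Psmc3, Psmd1, Psmd3, Psmd4, Psmd10, Psmd14, Psme2, Psmf1, Psmc3ip, Psmg1, Psmg3, Psmg4 and Nfe2l1 were named after their values were seen. The members, lists and alternatives were chosen with earlier results of these data known. Alternatives were other filters, probe set rules, normalizations, variance priors, array weights, blocks and leaving out each array. Promoter windows are from RefSeq. Figures were drawn with matplotlib 3.10.9.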

Additional observations from a re-analysis of the deposited data

How the results depend on the processing

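The median difference of the 46 proteasome genes stayed below 0 under each of the 17 alternatives, between −0.45 and −0.11, and relative to genes of like brightness between −0.17 and −0.07. On leaving out 1 array these medians ran from −0.45 to −0.16 and from −0.17 to −0.07. The 19S regulatory particle median was −0.08 with repeated quantile normalization and −0.05 after cyclic loess. No proteasome gene passed in limma except with array weights, where 15 of 46 members and 2960 of 13308 genes (22.2%) did; the largest weight, 5.20, fell on mutant replicate 3, and with 3 arrays per group these weights are uncertain. Over all genes, 0 to 4 passed on leaving out 1 array, with 4 without mutant replicate 1 and 1 without mutant replicate 2. Of the 46 members 31 kept their direction in every alternative and 15 did not. Among the 15 are Psmd3, which turned in 5 alternatives (−0.31 to 0.14), Psmc2 in 4 (−0.48 to 0.39), Psmd1 in 3 (−0.20 to 0.08), Psmb1 in 3 (−0.46 to 0.25), Psmc3 in 2 (−0.26 to 0.02), and Psme2, Psmg4, Psma3 and Psmd14 in 1 each. Of the genes with a higher mutant mean, Psmg2 was −0.12 as the mean of its probe sets, −0.0576 with arrays centred on their medians, −0.20 on the 4 arrays with high Eif2s3y, and −0.22 to 0.46 on leaving out 1 array. Psme1 was −0.0244 with centred arrays, −0.008 with array weights and −0.025 to 0.0786 on leaving out 1 array. Psmd2 was −0.15 with array weights and −0.11 to 0.25 on leaving out 1 array, and Psme3ip1 was −0.10 with array weights. On leaving out 1 array the Psmb8 to Psmb5 ratio difference ran from −0.0853 to 0.361 and the Psmb9 to Psmb6 one from −0.146 to 0.0029. The cause of these changes was not tested. The titles number the replicates without stating a pairing, so none was used in the main fit. Deviations from group means of same-numbered arrays correlated at 0.13, 0.20 and −0.13, and 3 of 6 arrays correlated best with their own number. With 3 arrays per group, 1 of them apart from the rest, this cannot decide whether the samples were paired. With the replicate block the counts past the threshold stayed at 0 for all genes and for the proteasome genes, with the same median of −0.29. Dim members have no order, since RMA gives no background level.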
